A study of Mus musculus with 9 samples.

Results

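Adipogenic differentiation of 3T3-L1 cells was followed here across all genes, by comparing 3 Differentiated libraries with 3 Undifferentiated libraries, 6 of the 9 RNA-seq libraries of the study. 3T3-L1 is a mouse embryonic fibroblast line that serves as a model of the preadipocyte, and all libraries came from this single line. Undifferentiated cells were the confluent control, kept for 3 days in high glucose DMEM with bovine calf serum and given no inducer. Differentiated cells received, after confluence, 1 µM dexamethasone (a glucocorticoid), IBMX at 0.5 mM (a methylxanthine that inhibits phosphodiesterases), 1 µM rosiglitazone (an agonist of PPARγ) and 10 µg/mL insulin, and were read out 3 days later. Their base medium was a DMEM to which lysine and arginine were added back, with fetal bovine serum. The inducers, the serum, the base medium and the time in culture therefore changed together, and their parts in any difference below cannot be told apart. The third group, Lysfree, received the same inducers in medium without lysine, and its levels are only set beside the others where they help to place a value. The samples were taken by their labels, not by any measured value. The labels do not say that the 3 samples of a group were separate cultures, so that the p-values measure only the spread between these samples.

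Adipogenesis turns a fibroblast-like precursor into a cell that stores triglyceride. Dexamethasone and IBMX act early through the glucocorticoid receptor and cAMP, C/EBPβ and C/EBPδ are induced first, and PPARγ and C/EBPα then hold the adipocyte programme in place. Confluent 3T3-L1 cells are also known to divide again after induction before they fill with lipid, and to exchange a fibroblast matrix rich in collagen I for a basement membrane around the fat cell.

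Counts on genes ranged from 15880144 to 21806693 per library in the Undifferentiated group and from 16044046 to 19223863 in the Differentiated group, and 18877 to 19536 genes had at least 1 count in a library. Levels are given in FPKM (fragments per kilobase, scaled to the depth of the library), which allows genes to be compared per length. Changes are log2 fold changes of Differentiated over Undifferentiated from edgeR, with their standard error (SE), and a differentially expressed gene (DEG) had an adjusted p under 0.05 and at least a 2-fold change. Levels are the mean ± SD of 3 libraries unless the libraries are listed, which is always in the order 1, 2 and 3. The libraries were made from polyadenylated RNA. Gene positions are those of the mouse build mm10.

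The labelled cell type was checked on marker genes first. Summed over 10 fibroblast and preadipocyte markers, the level was 4291 to 4559 FPKM in the Undifferentiated libraries and 1237 to 1251 FPKM in the Differentiated libraries. Summed over 10 adipocyte markers, it was 350.1 to 464 FPKM and 6782 to 7119 FPKM. The 2 groups did not overlap on either sum. Among the adipocyte markers Cfd (adipsin) went the other way within 2-fold, at a log2 fold change of -0.70. The control libraries were not free of adipocyte transcripts. Adipoq, which encodes adiponectin, stood at 47.3, 74.1 and 52.0 FPKM in the 3 Undifferentiated libraries, and Fabp4, a fatty acid carrier of adipocytes, at 33.0, 58.6 and 40.8 FPKM. Undifferentiated 2 was the highest of the 3 for both genes. Without that library the log2 fold change was 4.21 in place of 3.98 for Adipoq and 6.03 in place of 5.76 for Fabp4, and 5161 DEGs were called in place of 5329. Macrophage and leukocyte markers summed to 6.28 to 8.14 FPKM in Undifferentiated and 8.6 to 9.67 FPKM in Differentiated libraries, with Adgre1 and Itgam at 0 counts in all 6 and Cd14 and Cd68 making up nearly all of the sum and Cd68 alone higher (log2 fold change 1.29). Endothelial markers summed to at most 0.217 FPKM and bone and cartilage markers to at most 0.913 FPKM. Epithelial markers summed to 0.0754 to 0.377 FPKM before and 1.18 to 1.72 FPKM after, through the keratin genes Krt8 and Krt18, which rose, while Epcam had no count in the 6 libraries. Muscle markers summed to 2.64 to 4.34 FPKM, most of it Des, with no count of Myod1 or Actc1. The part of other cell types in the results was not tested. In RNA from whole cultures, fewer cells of a kind and less RNA per cell cannot be told apart.

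Of 24402 genes tested, 5329 were DEGs, 2545 higher (10.4% of the genes tested) and 2784 lower (11.4%) in Differentiated cells. A change of over 4-fold was found for 1144 of the genes that were higher and 1204 of those that were lower, and a change of over 16-fold for 351 and 243. Among the 12759 genes that averaged at least 1 CPM (counts scaled to a common depth), 14.7% were higher and 16.5% lower. At an adjusted p under 0.05 and any fold change, 23.0% were higher and 23.2% lower. The median log2 fold change was 0.02 over all genes tested and -0.01 over those with at least 1 CPM, close to no change. In 5168 of the 5329 DEGs the CPM values of the 2 groups did not overlap, against 12388 (50.8%) of all genes tested. The dispersion of each gene was taken from the trend over expression levels alone, so that a gene with unusually noisy replicates receives the p of a typical gene of its level, and the p of 286 genes underflowed, that is, it lay below the smallest number that is stored.

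**Figure D1:**
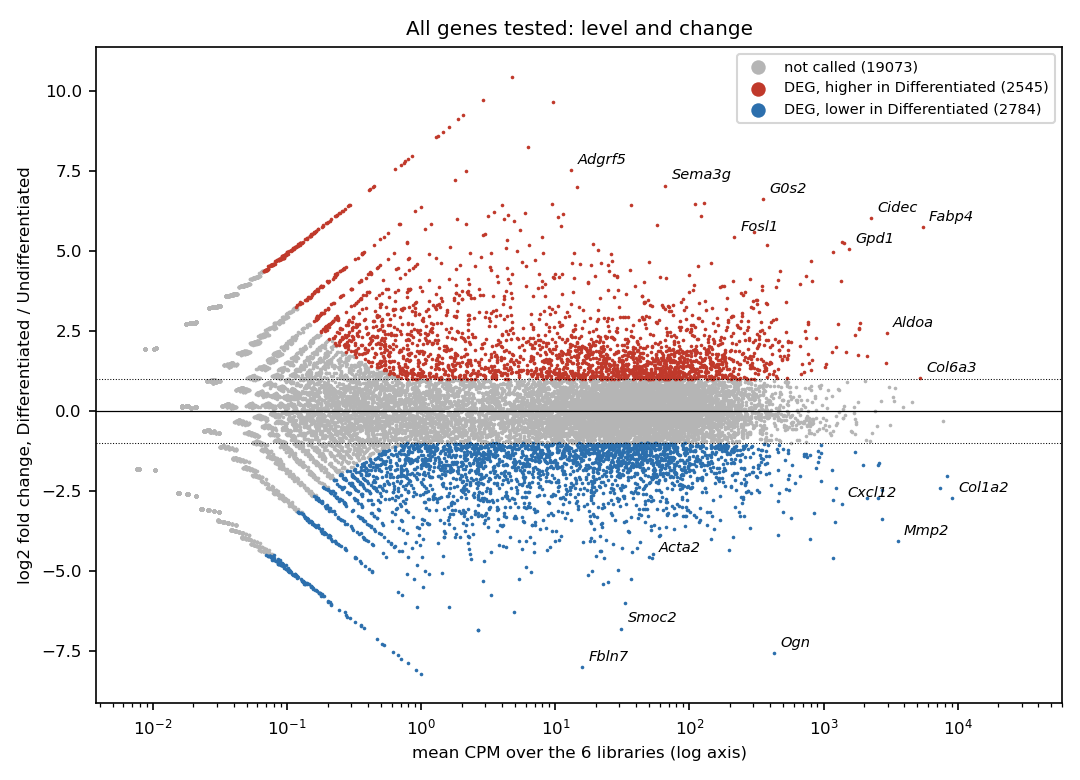
Each point is 1 of the 24402 genes tested, with its mean CPM over the 6 libraries on a log axis and its log2 fold change (Differentiated over Undifferentiated). Red points are the 2545 DEGs that were higher, blue points the 2784 that were lower, grey points were not called, and dotted lines mark a 2-fold change. Fabp4 and Cidec combine a rise of over 5 log2 units with a level above 1000 CPM, while the straight rows at the left are genes with a few counts in 1 group and none in the other.

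A small set of genes changed what the cells spent their messenger RNA on. The 8 genes that gained most CPM took 0.695%, 0.671% and 0.690% of all counts in the Undifferentiated libraries and 4.04%, 3.99% and 3.98% in the Differentiated libraries. They were Fabp4, Cidec, Aldoa, Col6a3, Gpd1, Lpl, Ldha and Acsl1. Fabp4 alone rose from 0.0200% ± 0.00587 to 1.06% ± 0.0532 of all counts (SD, n = 3), and Cidec, a lipid droplet protein that helps droplets fuse and grow, from 0.00688% ± 0.00156 to 0.440% ± 0.00418. The list mixes lipid storage with glycolysis, since Aldoa (aldolase A) and Ldha (lactate dehydrogenase A) are enzymes of that pathway, and it holds 1 collagen chain, Col6a3. The 8 genes that lost most CPM took 6.90%, 6.45% and 6.68% before and 1.07%, 1.10% and 1.09% after. All of them encode secreted proteins of the matrix or its surroundings: Col1a2, Col3a1, Col1a1, Mmp2, Ptn, Postn, Fn1 and Fstl1. Col1a2, an alpha chain of collagen I, fell from 1.61% ± 0.0764 to 0.239% ± 0.00486 of all counts. The groups did not overlap in any of the 16 genes, against 50.8% of all genes tested without overlap. The 16 were picked by the size of this same difference, so that their lack of overlap adds no support. With 3 libraries against 3, a permutation test that is exact over all splits cannot go below p = 0.1 for 1 share, so that no p is given for the shares.

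**Figure D2:**
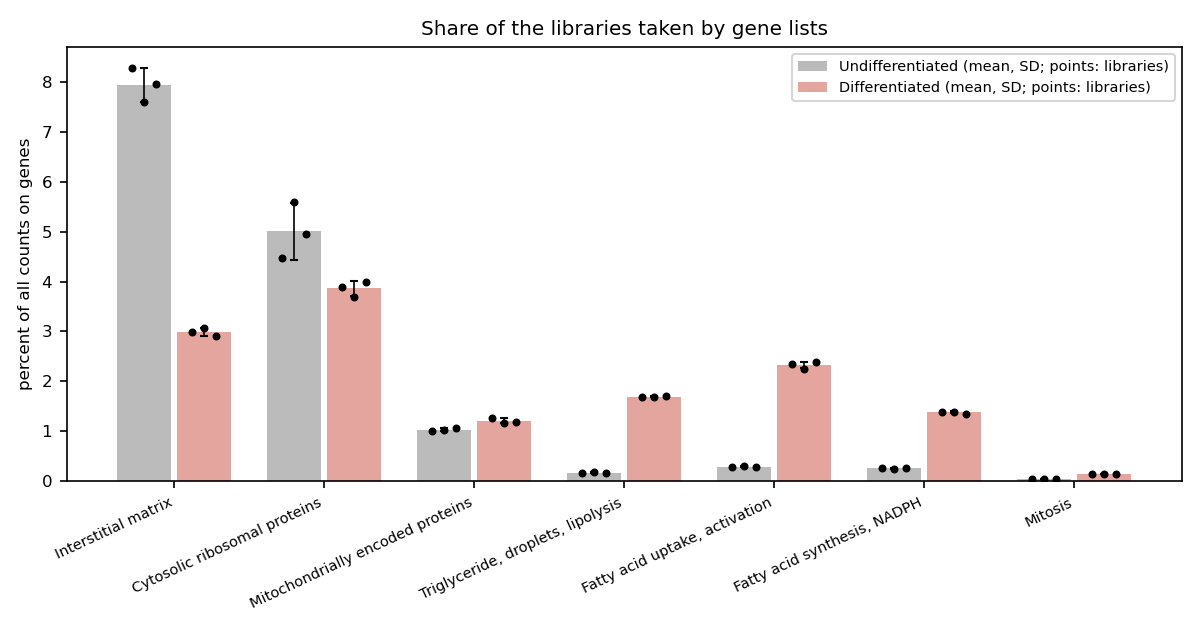
Bars give the mean percent of all counts on genes that fell on the members of 7 gene lists in 3 Undifferentiated (grey) and 3 Differentiated (red) libraries, with SD as error bars and each library as a point. The interstitial matrix list fell from 7.95% to 2.99%, while the 3 lipid lists rose from below 0.3% each to between 1.37% and 2.33%.

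Beyond 10 CPM and outside the genes that the study singles out, the largest rises belonged to genes of mixed roles, among them membrane, secreted and lipid proteins. Adgrf5 (ENSMUSG00000056492, chromosome 17, 43360451 to 43459557, plus strand), an adhesion G protein-coupled receptor, stood at 0.0208, 0.00506 and 0.0208 FPKM in the Undifferentiated libraries and at 3.11, 3.01 and 2.76 FPKM in the Differentiated libraries. All 3 Undifferentiated libraries were near 0, and the log2 fold change was 7.53 (SE 0.23), with an edgeR adjusted p of 2.8e-240. Sema3g (ENSMUSG00000021904, chromosome 14, 31217860 to 31230352, plus strand), a secreted semaphorin, was at 0.269, 0.151 and 0.234 FPKM before and at 28.9, 30.4 and 29.0 FPKM after, a log2 fold change of 7.06 (SE 0.11). G0s2 (ENSMUSG00000009633, chromosome 1, 193272161 to 193273217, minus strand), which inhibits the triglyceride lipase ATGL, was at 6.41, 9.74 and 8.03 FPKM and then at 853, 793 and 814 FPKM, a log2 fold change of 6.64 (SE 0.07). Neither gene had overlapping groups, and each had an edgeR adjusted p that underflowed. Aldh1a7, an aldehyde dehydrogenase of the retinaldehyde dehydrogenase family, rose from 1.34 ± 0.257 to 125 ± 2.08 FPKM, and Fam83a from 0.754 ± 0.298 to 69.8 ± 1.21 FPKM. Mrap (ENSMUSG00000039956, chromosome 16, 90738207 to 90749785, plus strand), the accessory protein that carries the ACTH receptor to the cell surface, rose from 2.15 ± 0.826 to 155 ± 1.49 FPKM. Prg4, which encodes the lubricant lubricin and whose exons overlap Tpr on the opposite strand, rose from 0.187 ± 0.0703 to 17.3 ± 1.92 FPKM, and P2rx1, an ATP-gated channel, from 0.110 ± 0.0575 to 8.71 ± 0.435 FPKM. Hcar2, 2610528A11Rik, Cidec and Fam110c complete the 12, whose log2 fold changes lay between 5.82 (Fam110c) and 7.53 (Adgrf5). In all 12 the groups did not overlap, as the rule that named them required. In the Lysfree libraries Sema3g and Adgrf5 were at 0.0125 to 0.0577 and 0 to 0.0291 FPKM.

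The largest falls were led by matrix genes. Fbln7 (ENSMUSG00000027386, chromosome 2, 128862981 to 128897034, plus strand), a fibulin, was at 9.48, 10.2 and 9.81 FPKM in the Undifferentiated and at 0, 0.0333 and 0.0767 FPKM in the Differentiated libraries, 1 of which held no count. Its log2 fold change was -8.0 (SE 0.22), with an edgeR adjusted p of 3.9e-278. Ogn (ENSMUSG00000021390, chromosome 13, 49608046 to 49624501, plus strand), the small leucine-rich proteoglycan osteoglycin, was at 335, 323 and 339 FPKM and then at 1.91, 1.61 and 1.88 FPKM. Every Differentiated library lay far below every Undifferentiated library, with a log2 fold change of -7.56 (SE 0.08) and an edgeR adjusted p that underflowed. Smoc2, a calcium-binding matrix protein, fell from 8.86 ± 0.161 to 0.0797 ± 0.0128 FPKM, and Ces1a (ENSMUSG00000071047, chromosome 8, 93020214 to 93048192, minus strand), a carboxylesterase, from 28.9 ± 1.08 to 0.458 ± 0.173 FPKM. Lpcat2, which makes phosphatidylcholine and platelet-activating factor, fell from 14.2 ± 0.856 to 0.355 ± 0.111 FPKM, and Akr1c14, a hydroxysteroid dehydrogenase, from 22.1 ± 0.790 to 0.600 ± 0.0603 FPKM. Also among the 12 were P4ha3, a subunit of collagen prolyl hydroxylase, at a log2 fold change of -4.99, Col23a1 at -5.11, Il17rd, which restrains FGF signalling, at -4.97, Acta2 (smooth muscle actin) at -4.60, the chemokine Cxcl5 at -4.59, and Mfap4, which overlaps Mapk7 on the opposite strand, at -5.41.

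Promoter sequence was read for 13739 of the 24386 gene symbols tested, from RefSeq on build GRCm38.p6, as 300 bases per gene, 250 before and 50 after its start (the most upstream one where a gene has several). A palindromic cAMP response element, TGACGTCA, was in 3.32% of the windows of DEGs that were higher (95% Wilson interval 2.57% to 4.29%) and in 1.6% of those that were lower (1.13% to 2.28%), against 2.82% of all windows. GCATGCGC, the core of the NRF1 element, was in 5.04% (4.09% to 6.19%) of the windows of the higher and 2.41% (1.80% to 3.20%) of those of the lower DEGs, against 4.53% of all windows. For both elements the interval of the DEGs that were higher held the share of all windows, and that of the DEGs that were lower lay below it. GGTCANAGG, the core of the repeat bound by PPARγ with RXR, was in 1.78% (1.25% to 2.53%) and 0.962% (0.609% to 1.52%), against 1.62% of all, so that the interval of the lower DEGs again lay below the share of all windows. Among genes of at least 10 CPM that interval held the share of all, at 0.712% (0.345% to 1.46%) against 1.41%. The intervals of the lower DEGs for TGACGTCA and GCATGCGC stayed below it at that level. The C/EBP element TTGCNNAA was in 9.43% and 9.41%, against 8.97%, and the CArG box, which serum response factor binds, in 1.66% and 1.82%, against 1.44%. The element of oestrogen-related receptors, TCAAGGTCA, was in 0.119% (0.0325% to 0.431%) and 0.267% (0.114% to 0.624%), against 0.284%. These shares rest on 2 and 5 windows, and both intervals held the share of all windows. The AP-1 element TGANTCA was in 6.82% and 5.77%, against 6.03%, and the TEAD element CATTCCA in 2.90% and 4.44% (3.59% to 5.47%), against 3.30%. For the TEAD element the interval of the lower DEGs lay above the share of all windows. Both strands were searched, the intervals cover counting error only, and a match describes letters, not a bound site.

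Promoters of 4 genes of opposite fates that the text returns to are shown, a pair that rose (Aqp7 and Ldha) and a pair of contractile genes that fell (Myl9 and Cnn2). Each was also picked because its window holds the element marked, so that the match is no result about these genes. Each line gives the 250 bases before the start in the direction of transcription, from the same RefSeq table, with the match in capitals. Aqp7, the glycerol channel of adipocytes, at chr4:41048137-41048386 on the minus strand, holds GGTCANAGG read on the other strand, with its first base 53 bases before the start. Ldha at chr7:46845554-46845803 on the plus strand holds TGACGTCA 12 bases before the start, and both genes have 2 starts in the table. Myl9, a regulatory myosin light chain, at chr2:156775214-156775463 on the plus strand, and Cnn2, calponin 2, at chr10:79988350-79988599 on the plus strand, hold a CArG box 161 and 56 bases before the start.
Aqp7: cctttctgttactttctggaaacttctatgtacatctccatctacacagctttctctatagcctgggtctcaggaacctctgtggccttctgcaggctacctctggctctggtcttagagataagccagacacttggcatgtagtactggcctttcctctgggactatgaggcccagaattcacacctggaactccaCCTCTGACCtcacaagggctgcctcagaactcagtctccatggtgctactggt
Ldha: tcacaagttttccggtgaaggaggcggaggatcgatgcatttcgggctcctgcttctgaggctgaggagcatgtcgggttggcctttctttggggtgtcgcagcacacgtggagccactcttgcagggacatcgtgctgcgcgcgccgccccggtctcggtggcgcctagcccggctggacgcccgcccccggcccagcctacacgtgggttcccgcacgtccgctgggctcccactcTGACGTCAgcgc
Myl9: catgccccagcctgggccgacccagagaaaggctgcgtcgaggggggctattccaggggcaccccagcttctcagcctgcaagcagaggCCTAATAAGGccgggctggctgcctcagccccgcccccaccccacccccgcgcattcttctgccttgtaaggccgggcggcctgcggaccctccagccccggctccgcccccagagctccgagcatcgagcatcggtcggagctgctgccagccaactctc
Cnn2: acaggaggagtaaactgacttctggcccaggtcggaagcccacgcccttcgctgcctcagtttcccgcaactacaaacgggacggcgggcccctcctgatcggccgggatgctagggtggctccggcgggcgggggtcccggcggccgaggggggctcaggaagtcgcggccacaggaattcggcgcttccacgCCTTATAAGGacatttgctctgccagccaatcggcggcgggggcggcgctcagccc

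The genes were then read by role, in 26 lists of genes and 33 families of related enzymes or isoforms. Each list is described by how many of its members tested were DEGs in each direction and by its median log2 fold change, to be read against 10.4% higher, 11.4% lower and a median of 0.02 over all genes. Over genes of at least 1 CPM these were 14.7%, 16.5% and -0.01, and most lists hold mainly genes of that level. Where a gene had no more than 3 counts in any library of 1 group, its rise or fall is given as a lower bound. Rxrg and Prdm16 are exceptions, given with the value of each library and without a bound. The strand setting of the counting is not given in the sources used here, so that reads of genes whose exons overlap cannot be told apart. Such partners are named beside the gene, and also concern Acsl3 (Utp14b), Acsl5 (Zdhhc6), Adrb3 (Gm45470), Ccnd1 (Oraov1), Cebpb (Tmem189), Cebpd (Spidr), Cideb (Nop9), Elovl1 (Cdc20), G6pdx (Ikbkg), Mgll (Gm26588) and Rarres2 (Lrrc61).

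**Figure D3:**
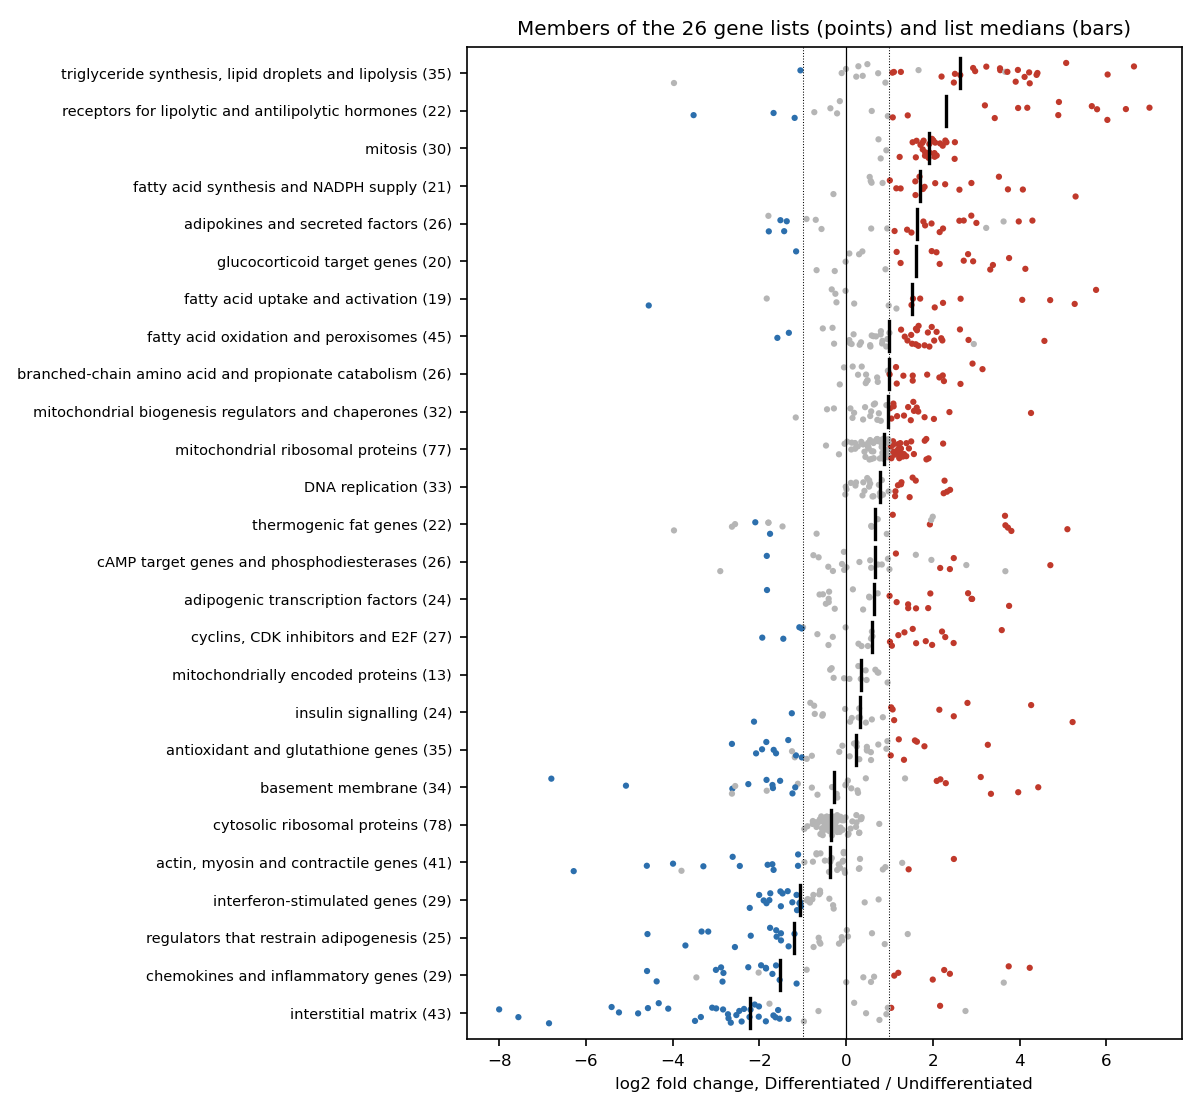
Each point is a gene of 1 of 26 lists, placed by its log2 fold change (Differentiated over Undifferentiated). Red points are DEGs that were higher, blue points DEGs that were lower and grey points were not called; black bars are list medians, dotted lines mark a 2-fold change and the number of genes tested is in brackets. Medians ran from -2.23 (interstitial matrix) to 2.63 (triglyceride synthesis, lipid droplets and lipolysis).

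Of 24 transcription factors that promote adipogenesis, 11 rose and 1 fell (median 0.63). Nr1h3 (ENSMUSG00000002108, chromosome 2, 91184061 to 91202834, minus strand), the liver X receptor α that senses oxysterols, was at 3.99, 4.88 and 3.87 FPKM in the Undifferentiated and at 31.8, 32.4 and 32.9 FPKM in the Differentiated libraries, a log2 fold change of 2.89 (SE 0.08) with an edgeR adjusted p of 1.6e-253. In the same fit the log2 fold change was 1.89 (SE 0.06) for Pparg and 2.81 (SE 0.06) for Cebpa. Klf15, a factor of late adipogenesis, rose from 0.207 ± 0.0525 to 2.94 ± 0.147 FPKM, Klf5 from 0.617 ± 0.155 to 2.38 ± 0.134 FPKM, and Mlxipl (ChREBP, the factor that answers to glucose) from 0.217 ± 0.118 to 0.704 ± 0.0474 FPKM. The genes of the early wave did not follow. Cebpb had a log2 fold change of 0.39 (SE 0.05) and Cebpd one of -0.26 (SE 0.07), both under the 2-fold threshold, and Klf4 fell from 23.7 ± 0.0730 to 6.83 ± 0.126 FPKM. The STAT5 pair divided, with Stat5a just past the threshold at a log2 fold change of 1.00 and Stat5b at -0.40, though the exons of Stat5a overlap Stat3 on the opposite strand. Of the PPAR genes, Ppard rose from 8.05 ± 0.280 to 19.8 ± 0.879 FPKM and Ppara, at a far lower level, from 0.10 ± 0.0528 to 0.442 ± 0.138 FPKM. Of their RXR partners, Rxra was at a log2 fold change of 0.16 and Rxrb at 0.33, and Rxrg was called (2.91) on values that overlap between the groups, 0, 0.0595 and 0 against 0.0281, 0.327 and 0.189 FPKM. The call of Rxrg was lost without Differentiated 2 (2.17), with DESeq2 and with a replicate block, and that of Stat5a was lost without Differentiated 3 (0.99) or Undifferentiated 3 (0.97).

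Of 25 regulators that restrain adipogenesis, none rose past the threshold and 13 fell (median -1.19). Dlk1 (ENSMUSG00000040856, chromosome 12, 109452823 to 109463336, plus strand), the preadipocyte factor Pref-1, was at 267, 272 and 271 FPKM in the Undifferentiated libraries and at 29.6, 29.9 and 31.5 FPKM in the Differentiated libraries. The libraries of each group lay close together and far from the other group, with a log2 fold change of -3.18 (SE 0.05) and an edgeR adjusted p that underflowed. Zfp521, a zinc finger protein that holds precursors back from the fat lineage, fell from 15.5 ± 0.204 to 1.22 ± 0.155 FPKM, Gata2 from 1.66 ± 0.269 to 0.167 ± 0.0314 FPKM, and Snai2 from 35.1 ± 0.530 to 6.03 ± 0.255 FPKM. The Wnt ligands Wnt5a and Wnt6 fell by 1.5 and 2.20 on the log2 scale, and Wnt10b by at least 3.53-fold since the Differentiated libraries held at most 3 counts each. Sox9, Runx2, Twist1 and Twist2, which belong to the cartilage, bone and mesenchymal programmes, had log2 fold changes of -1.75, -1.61, -1.6 and -1.5. Wwtr1 (TAZ), a co-activator that opposes PPARγ, moved the other way within 2-fold, at 0.60 (SE 0.06).

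Transcription factors as a class, taken by the factor family given in the deposited annotation and examined after the values had been seen, were more often lower than higher. Of 895 factors with a mean of at least 1 CPM, 64 (7.15%) were higher and 172 (19.2%) lower, with a median of -0.31. The corresponding shares were 15.4% and 16.4% of 10562 other protein-coding genes, with a median of 0.02. The zinc fingers of the C2H2 type made up 424 of the factors, of which 10 were higher and 92 lower, and of 58 homeobox factors 2 were higher and 17 lower. Nuclear receptors of the thyroid hormone receptor type went the other way, with 6 of 13 higher and 1 lower. The largest rise among well expressed factors was that of Fosl1, the AP-1 factor Fra-1, from 6.35, 5.26 and 5.45 FPKM to 252, 253 and 249 FPKM (log2 fold change 5.43, SE 0.07); its exons overlap Ccdc85b on the opposite strand. E2f2, an E2F factor of the cell cycle, rose from 0.220 ± 0.0933 to 2.62 ± 0.154 FPKM. Among those that fell, Foxf1 went from 1.52 ± 0.243 to 0.104 ± 0.0933 FPKM and Osr2 from 18.0 ± 1.24 to 1.37 ± 0.123 FPKM, both factors of mesenchyme development.

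Lipid storage had the highest list median over all genes tested. After edgeR's expression filter the list of hormone receptors stood above it. Of 35 genes of triglyceride synthesis, lipid droplets and lipolysis, 23 rose and 1 fell (median 2.63, or 2.51 with genes near 0 set to their bound). Gpd1 (ENSMUSG00000023019, chromosome 15, 99717515 to 99725005, plus strand), which makes glycerol 3-phosphate from a glycolytic intermediate, was at 25.3, 37.1 and 27.7 FPKM in the Undifferentiated and 1043, 1006 and 1049 FPKM in the Differentiated libraries, with a log2 fold change of 5.07 (SE 0.05). Undifferentiated 2 was again the highest control library. In the synthesis steps that follow, isoforms changed unequally until the last. At the first acylation, Gpat3 rose from 3.78 ± 0.191 to 59.7 ± 1.53 FPKM and Gpam by 1.07 on the log2 scale, while Gpat4 was at 0.23. At the second, Agpat2, the gene lost in a form of congenital lipodystrophy, rose from 20.4 ± 1.46 to 312 ± 5.43 FPKM, while Agpat5 rose by 1.10 on the log2 scale and Agpat1, Agpat3 and Agpat4 were at 0.28, 0.91 and -0.0028. Lpin1, a phosphatidate phosphatase, rose from 3.88 ± 0.207 to 30.1 ± 0.830 FPKM with Lpin2 at 0.49 on the log2 scale, and for the last step Dgat1 and Dgat2 both rose, by 3.23 (SE 0.06) and 3.55 (SE 0.06).

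On the lipid droplet, Plin1, Plin2 and Plin4 rose (log2 fold changes 4.39, 2.51 and 2.48), while Plin3, the perilipin found in most cells, fell from 40.9 ± 1.33 to 20.1 ± 0.490 FPKM. The exons of Plin4 overlap Hdgfl2 on the opposite strand. Cidec carried its family, since Cidea and Cideb were below 0.25 FPKM in every library. Genes of lipid release rose beside those of storage. Pnpla2, the lipase ATGL, rose from 24.7 ± 3.84 to 474 ± 3.90 FPKM, its co-activator Abhd5 from 10.7 ± 0.195 to 67.6 ± 2.70 FPKM, Lipe (hormone-sensitive lipase) from 8.42 ± 0.832 to 149 ± 0.651 FPKM and Mgll from 0.0762 ± 0.00401 to 0.924 ± 0.0823 FPKM. Aqp7, whose promoter is shown above, was at 0.514, 0.758 and 0.883 FPKM in the Undifferentiated and 14.4, 13.8 and 12.2 FPKM in the Differentiated libraries, with a log2 fold change of 4.22 (SE 0.13) and an edgeR adjusted p of 4.2e-230. Of the aquaporins tested it was the one at the highest level after differentiation, with Aqp1 second at 5.66 ± 0.325 FPKM.

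In fatty acid uptake and activation, 10 of 19 genes rose and 1 fell (median 1.51). Fabp4 (ENSMUSG00000062515, chromosome 3, 10204088 to 10208576, minus strand) was at 2489.5, 2304 and 2542 FPKM in the Differentiated libraries, with a log2 fold change of 5.76 (SE 0.05) and an edgeR adjusted p that underflowed, and Fabp5, its relative, rose from 26 ± 3.18 to 443 ± 14.8 FPKM. Acsl1 (ENSMUSG00000018796, chromosome 8, 46471037 to 46536051, plus strand), which activates fatty acids to acyl-CoA, was at 6.23, 7.85 and 6.40 FPKM and then at 267, 272 and 268 FPKM, a log2 fold change of 5.27 (SE 0.05). In the same family Acsl3 and Acsl4 rose by 1.71 and 1.54 on the log2 scale, while Acsl5 was at -0.22. Cd36, a fatty acid translocase, rose from 16.6 ± 0.891 to 440.3 ± 21.6 FPKM, and the caveolae genes Cav1 and Cav2 by 2.04 and 2.64 on the log2 scale. Lpl, the lipoprotein lipase that adipocytes secrete, was already at 146 ± 1.47 FPKM in the control and reached 424 ± 2.65 FPKM. Gpihbp1, the capillary protein that anchors lipoprotein lipase, fell by at least 5.98-fold from 0.414 ± 0.0984 FPKM. The transporter genes Slc27a1 and Slc27a4 stayed within 2-fold, at -0.25 and 0.98, the second a DEG without Undifferentiated 2 (1.04).

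Of 21 genes of fatty acid synthesis and NADPH supply, 16 rose and none fell past the threshold (median 1.69). Several genes of carbon supply to the pathway stood high among them. Pcx (ENSMUSG00000024892, chromosome 19, 4510472 to 4621752, plus strand), pyruvate carboxylase, was at 31.0, 35.8 and 30.5 FPKM in the Undifferentiated and 556, 566 and 549.8 FPKM in the Differentiated libraries, a log2 fold change of 4.08 (SE 0.05) with an edgeR adjusted p that underflowed. Slc25a1, the citrate carrier, rose from 48.6 ± 3.17 to 367 ± 12 FPKM, and Acss2, which makes acetyl-CoA from acetate and overlaps Gss on the opposite strand, from 1.41 ± 0.0940 to 16.6 ± 0.466 FPKM. Of the 2 acetyl-CoA carboxylases, Acaca rose by 1.6 and Acacb was at 0.54, under the threshold. Scd2 rose from a higher control level than Scd1, 94.5 ± 4.74 to 589 ± 10.9 FPKM against 14.2 ± 1.31 to 566 ± 18.7 FPKM, so that both desaturases ended at a similar level. Elongation was uneven. Elovl6, which extends palmitate, had a log2 fold change of -0.29 (SE 0.07), Elovl1 and Elovl5 one of 0.57 and 0.59, Elovl3, a gene of brown fat, rose to 0.815 ± 0.0845 FPKM, and Elovl4 fell from 0.421 ± 0.0300 to 0.0608 ± 0.0250 FPKM. The NADPH genes Me1, G6pdx, Idh1 and Pgd rose by 1.6, 1.77, 1.16 and 1.01 on the log2 scale, the last a DEG no longer without Differentiated 3, Undifferentiated 2 or Undifferentiated 3 (each 0.99 or 1.00).

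Receptors for hormones and metabolites that raise or lower lipolysis included several genes near 0 in the control. Of 22 tested, 13 rose and 3 fell (median 2.31, or 1.25 with genes near 0 set to their bound). Hcar2 (ENSMUSG00000045502, chromosome 5, 123863570 to 123865499, minus strand), the receptor for the ketone body β-hydroxybutyrate and niacin, was at 0.122, 0.142 and 0.0647 FPKM in the Undifferentiated and 15.3, 15.5 and 14.8 FPKM in the Differentiated libraries. The libraries of each group lay close together, and the log2 fold change was 7.0 (SE 0.20), with an edgeR adjusted p of 2.7e-256. Hcar1, the lactate receptor, followed the same pattern, from 0.157, 0.111 and 0.0760 to 6.65, 7.29 and 6.29 FPKM (log2 fold change 5.79, SE 0.20). Both receptors couple to Gi and are known to restrain lipolysis. Ffar2, a receptor for short-chain fatty acids, rose from 0.582 ± 0.275 to 18.3 ± 0.569 FPKM, and Ffar4, a receptor for long-chain fatty acids, by at least 51.3-fold to 5.82 ± 0.460 FPKM.

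Of the receptors that raise cAMP in adipocytes, Mc5r, a melanocortin receptor, rose by at least 52.4-fold to 7.12 ± 0.173 FPKM, and Mc2r, the ACTH receptor whose accessory protein Mrap is named above, from 0.210, 0.204 and 0.0800 to 2.86, 2.78 and 2.77 FPKM. Gipr, the receptor for the incretin GIP, rose from 0.0622 ± 0.0471 to 3.12 ± 0.726 FPKM. Adrb3 stayed low by comparison. This β3-adrenergic receptor, typical of mature mouse fat, was at 0.195, 0.554 and 0.333 FPKM in the Undifferentiated and 0.823, 0.843 and 0.678 FPKM in the Differentiated libraries (log2 fold change 1.08, SE 0.28, an edgeR adjusted p of 0.00042), a call that was lost without Undifferentiated 1 (0.76). Among receptors for circulating peptides, Adipor2 rose from 15 ± 0.825 to 164 ± 2.11 FPKM while Adipor1, the other adiponectin receptor, had a log2 fold change of -0.21. The growth hormone receptor Ghr fell from 76.8 ± 2.08 to 34.4 ± 0.669 FPKM, Npr2 fell from 32.6 ± 1.57 to 10.4 ± 0.370 FPKM and Npr3, the natriuretic peptide clearance receptor, rose from 3.86 ± 0.186 to 10.5 ± 0.213 FPKM. Ptger4, a prostaglandin E2 receptor that overlaps Ttc33, fell by 3.52 on the log2 scale from 0.449 ± 0.0944 FPKM.

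**Figure D4:**
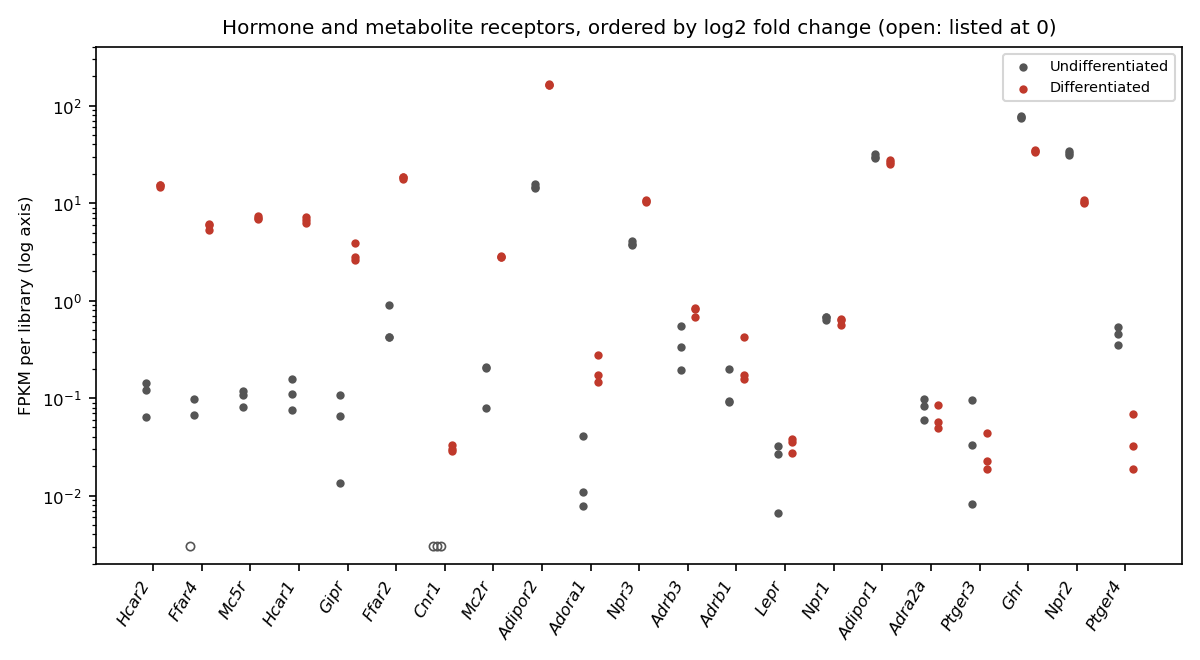
FPKM of 21 of the 22 receptor genes in each of 3 Undifferentiated (grey) and 3 Differentiated (red) libraries on a log axis, ordered by log2 fold change, with open circles for libraries listed at 0. Hcar2, at the left, lies below 0.2 FPKM in all Undifferentiated and above 14 FPKM in all Differentiated libraries, while Ghr, Npr2 and Ptger4, at the right, are lower after differentiation.

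Of 26 adipokines and secreted factors, 14 rose and 4 fell (median 1.64, or 1.43 with genes near 0 set to their bound). Adipoq (ENSMUSG00000022878, chromosome 16, 23146536 to 23158028, plus strand) reached 947, 914 and 936 FPKM from the control levels given above, a log2 fold change of 3.98 (SE 0.06). Retn (resistin) rose from 6.27, 8.46 and 6.05 to 56.8, 50.7 and 50.6 FPKM, and Rarres2 (chemerin) from 5.06 ± 0.715 to 31.6 ± 1.24 FPKM. Leptin stayed low, although Lep was a DEG at 0.0840, 0 and 0.0372 FPKM before and 0.385, 0.368 and 0.277 FPKM after. Cfd, the complement factor adipsin, was at 63.9, 101 and 66.3 FPKM in the Undifferentiated and 50.8, 49.2 and 45.4 FPKM in the Differentiated libraries, a log2 fold change of -0.70 (SE 0.07), under the 2-fold threshold and with a wide spread in the control. In the Lysfree libraries Cfd was at 1.48 to 1.90 FPKM and Adipoq at 3.61 to 4.96 FPKM. Among genes of vessel growth and metabolism, Vegfa rose from 43.5 ± 2.89 to 152 ± 5.32 FPKM, Angptl4 from 64.3 ± 3.07 to 292 ± 1.83 FPKM and Agt, angiotensinogen, from 59.1 ± 3.45 to 213 ± 1.82 FPKM, while Vegfb was at a log2 fold change of -0.57. Fgf21 rose from 1.00 ± 0.0927 to 20.4 ± 2.51 FPKM. Igf1, Metrnl, C1qtnf1 and C1qtnf6 fell by 1.37, 1.43, 1.52 and 1.78 on the log2 scale.

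Of 24 genes of insulin signalling, 8 rose and 2 fell (median 0.31). The receptor gene Insr rose by 1.11 (SE 0.07) on the log2 scale. Slc2a4, the insulin-responsive glucose transporter GLUT4, was at 0.256, 0.406 and 0.162 FPKM in the Undifferentiated and 10.7, 11.3 and 10.7 FPKM in the Differentiated libraries, a log2 fold change of 5.22 (SE 0.15) with an edgeR adjusted p of 1.5e-274. Irs2 (ENSMUSG00000038894, chromosome 8, 10984681 to 11008458, minus strand) was at 8.28, 6.87 and 8.02 FPKM and then at 53.8, 56.6 and 53.6 FPKM (log2 fold change 2.80, SE 0.06), while Irs1, its relative, overlapped between the groups at 0.09 (SE 0.07). Pde3b, which breaks down cAMP in answer to insulin, rose from 0.597 ± 0.0610 to 3.40 ± 0.259 FPKM, and Tbc1d4, the brake on GLUT4 traffic, from 2.63 ± 0.276 to 11.9 ± 0.414 FPKM. The kinase genes Akt2 and Akt1 stayed within 2-fold, at 0.59 and -0.74. Pik3r2, a regulatory PI3-kinase subunit, and Grb14, an inhibitor of the insulin receptor, fell by 1.25 and 2.12 on the log2 scale.

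In glucose use, isoforms of one step often differed in their change. The basal transporter Slc2a1 was well above Slc2a4 in both groups, at 32.4 ± 0.264 and 158 ± 5.79 FPKM. Hk2, the insulin-regulated hexokinase, rose from 6.25 ± 0.161 to 57.8 ± 3.11 FPKM (log2 fold change 3.18, SE 0.06), and Hk1 by 1.03 (SE 0.06), which was just under the threshold without Undifferentiated 1. Among phosphofructokinases, Pfkl and Pfkp rose by 2.08 and 2.09 while Pfkm was at 0.12; Pfkp and Pfkm overlap Pitrm1 and Senp1 on the opposite strand. Ldha (ENSMUSG00000063229, chromosome 7, 46841475 to 46855627, plus strand), with its promoter printed above, was at 138, 155 and 144 FPKM in the Undifferentiated and 1006, 1012 and 973 FPKM in the Differentiated libraries, a log2 fold change of 2.75 (SE 0.05) with an edgeR adjusted p that underflowed. Ldhb rose from 35.9 ± 2.64 to 137 ± 4.10 FPKM, and Aldoa, whose symbol stands for 2 gene identifiers of which the more abundant is used, from 317 ± 5.87 to 1750.1 ± 26.5 FPKM. Of the kinases that close the pyruvate dehydrogenase gate, Pdk1 rose from 10.2 ± 0.734 to 37.6 ± 2.26 FPKM, while Pdk4, a kinase of fasting, was at a log2 fold change of -0.68 (SE 0.08). Of 10 carbonic anhydrase genes tested, 7 rose and 1, Car7, fell. Among them were Car5b, a mitochondrial form, which rose from 7.30 ± 0.674 to 57.8 ± 0.375 FPKM, Car3, which rose from 4.24 ± 0.785 to 28.9 ± 1.77 FPKM, and Car12, which rose by at least 28-fold to 0.581 ± 0.0466 FPKM.

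**Figure D5:**
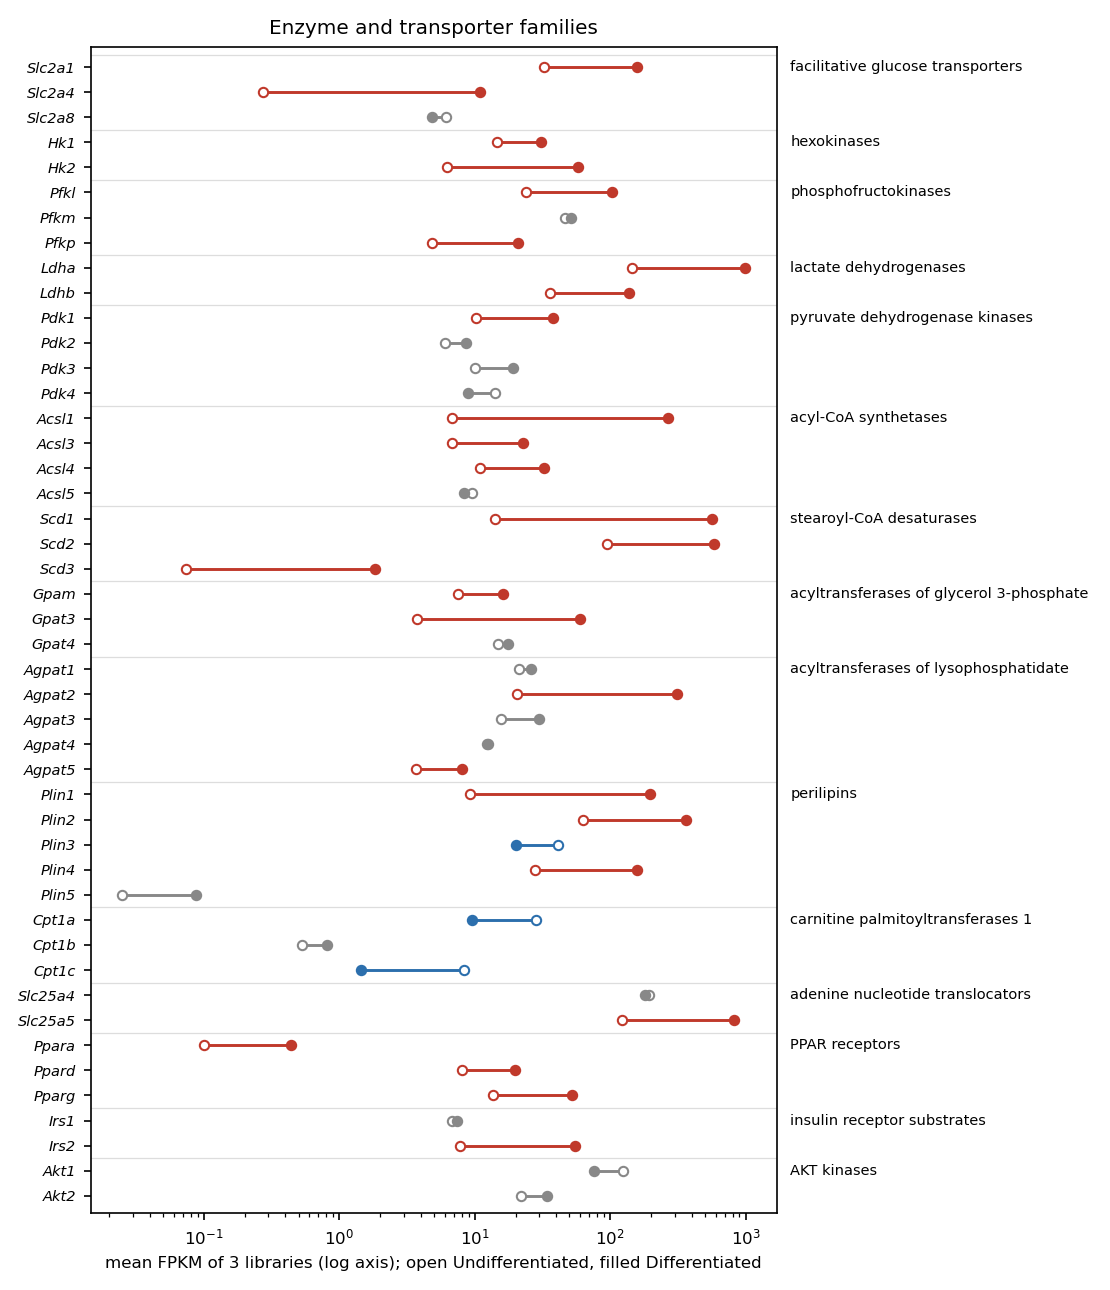
Mean FPKM of 3 libraries on a log axis for the members of 15 families, open circles for Undifferentiated and filled circles for Differentiated, with lines in red for DEGs that were higher, blue for DEGs that were lower and grey for genes not called. The line of Agpat2 spans 20.4 to 312 FPKM while that of Agpat4 lies at nearly 1 level, and members with both means under 0.05 FPKM, and 1 other gene, are left out.

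Proteins of the mitochondrion are encoded in the nucleus and, for a few subunits, in the organelle itself, and both kinds were measured. Of 32 regulators and import or chaperone genes, 16 rose and none fell past the threshold (median 0.97). Ppargc1b, the co-activator PGC-1β, was at 0.729, 0.651 and 0.657 FPKM in the Undifferentiated and 13.6, 13.9 and 12.6 FPKM in the Differentiated libraries, a log2 fold change of 4.26 (SE 0.11) with an edgeR adjusted p of 2.9e-298. Esrra, the nuclear receptor it works with, rose from 17.3 ± 1.77 to 44.6 ± 1.79 FPKM, with exons that overlap Trmt112. The chaperonin genes Hspd1 and Hspe1, which overlap each other, rose by 2.38 and 1.63, and the import genes Tomm40 and Timm50 by 2.02 and 1.81, on the log2 scale. Tfam, which packages mitochondrial DNA, stayed under the threshold at 0.72 (SE 0.07), and Nrf1 was at 0.15 (SE 0.08). Of 77 mitochondrial ribosomal proteins, 30 rose past the threshold and 70 were higher with an adjusted p under 0.05 at any fold, with 1 lower (median 0.87). Of 78 cytosolic ribosomal proteins none reached 2-fold, 58 were lower and 7 higher at any fold (median -0.34), and their summed share of counts was 5.01% ± 0.571 before and 3.86% ± 0.156 after, highest in Undifferentiated 2. None of the 13 genes encoded in the mitochondrion was a DEG, with 7 higher and 3 lower at any fold (median 0.34). Among these, mt-Nd1 had a log2 fold change of 0.96 and mt-Nd4 one of -0.37, and without Undifferentiated 3 mt-Nd1 was a DEG (1.00). The 2 adenine nucleotide translocators parted, with Slc25a5 rising from 121 ± 7.59 to 822 ± 19.4 FPKM and Slc25a4, the muscle form, at 192 ± 17.0 and 181 ± 6.60 FPKM.

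Fatty acid oxidation and peroxisome genes rose in part, 21 of 45 higher and 2 lower (median 1.00). Acaa1b, a peroxisomal thiolase, rose from 0.975 ± 0.547 to 24.6 ± 1.55 FPKM, Acadm, the medium-chain dehydrogenase, from 21.5 ± 1.84 to 101 ± 2.40 FPKM, and Pex11a, which divides peroxisomes, from 7.36 ± 0.684 to 46.5 ± 1.09 FPKM. The entry step of the mitochondrial pathway fell while enzymes behind it rose. Cpt1a (ENSMUSG00000024900, chromosome 19, 3323301 to 3385732, plus strand), the carnitine palmitoyltransferase that admits long-chain fatty acids, was at 27.5, 27.1 and 30.6 FPKM in the Undifferentiated and 9.26, 10.5 and 9.11 FPKM in the Differentiated libraries, a log2 fold change of -1.59 (SE 0.07) with an edgeR adjusted p of 5.1e-127. Cpt1b was at 0.526 ± 0.0896 and 0.818 ± 0.0897 FPKM, and Cpt2, on the inner side, rose from 18.8 ± 0.300 to 58.4 ± 1.19 FPKM. In the breakdown of branched-chain amino acids, 13 of 26 genes rose and none fell (median 0.99). Bcat2, the mitochondrial transaminase, rose from 13.6 ± 1.25 to 86.2 ± 1.08 FPKM with the cytosolic Bcat1 at a log2 fold change of 0.45, and Dbt and Bckdhb of the branched-chain keto acid dehydrogenase by 3.14 and 2.91.

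Of 24 genes of thermogenic fat listed, Ucp1 and Zic1 were not tested, a test that needed a count in any of the 6 libraries. Among the 22 tested, 7 rose and 2 fell (median 0.66). Only 10 of these averaged at least 1 CPM, and 9 had no more than 3 counts in any library of at least 1 group. Kcnk3, a potassium channel of brown fat, rose from 1.25 ± 0.282 to 16 ± 0.755 FPKM and Cox7a1 from 0.665 ± 0.0454 to 9.67 ± 1.67 FPKM. Cidea, a defining gene of that fat, was at 0, 0.196 and 0.0536 FPKM in the Undifferentiated libraries and at 0 in all Differentiated libraries, and Prdm16 was called at 0.0139, 0.0518 and 0.00664 FPKM in the Differentiated libraries and listed at 0 in the others, a call lost without Differentiated 2 (3.87) and with a replicate block. Cox8b and Ckb fell, from 2.01 ± 1.13 to 0.580 ± 0.436 FPKM and from 0.265 ± 0.0314 to 0.0616 ± 0.0357 FPKM, both at low levels. The call of Cox8b was lost without Differentiated 1 (-1.37), without Undifferentiated 2 (-1.17) and with DESeq2.

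The interstitial matrix had the lowest median of the 26 lists, with 32 of 43 genes lower and 2 higher (median -2.23). Lox, the enzyme that cross-links collagen and elastin, was at 484, 434 and 485 FPKM in the Undifferentiated and 20.8, 20.7 and 18.6 FPKM in the Differentiated libraries, a log2 fold change of -4.57 (SE 0.05) with an edgeR adjusted p that underflowed. All of its relatives tested but Loxl2 fell too, with Loxl1 at -1.53, Loxl3, which overlaps Htra2, at -2.84 and Loxl4 at -2.35, while Loxl2, at a low level, rose from 0.151 ± 0.0284 to 0.706 ± 0.174 FPKM. The small leucine-rich proteoglycans Dcn (decorin), Fmod, Aspn and Lum, which space collagen fibrils, fell by 4.32, 4.10, 2.23 and 2.20 on the log2 scale. Among fibrillar collagens Col11a1 fell by 3.48 and Col1a2 by 2.71 on the log2 scale, while Col5a1 was at -0.64 (SE 0.04). Collagen VI, a microfibrillar collagen known from fat tissue, went the other way. Col6a3 was at 304, 265 and 292 FPKM before and 609, 649.9 and 544 FPKM after, a log2 fold change of 1.04 (SE 0.04), and Col6a1 and Col6a2 were higher within 2-fold, at 0.46 and 0.77. The fit gave Col6a3 0.98 without Differentiated 2 and 0.99 without Undifferentiated 2, just under the threshold.

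Basement membrane genes divided, with 7 of 34 higher and 10 lower (median -0.27). The main chains of collagen IV hardly changed, Col4a1 at 0.12 (SE 0.04) and Col4a2 at -0.0023 (SE 0.04), and Lamc1, Nid1 and Hspg2 were at 0.27, -0.02 and 0.04. Col4a1 and Col4a2 are read from overlapping exons in part. The laminin-binding integrin genes of the list rose, Itga6 from 6.38 ± 0.514 to 65.7 ± 2.86 FPKM and Itga7 from 0.398 ± 0.0730 to 8.65 ± 0.596 FPKM, as did Col15a1, from 1.44 ± 0.0418 to 7.22 ± 0.203 FPKM. Sparc, a collagen-binding protein, fell from 1032 ± 50.8 to 326 ± 9.12 FPKM and Lamb2 from 33.0 ± 2.21 to 9.42 ± 0.393 FPKM.

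Of 41 actin, myosin and contractile genes, 11 fell and 2 rose (median -0.37). The falls included contractile isoforms, while Myh11, the smooth muscle myosin heavy chain, rose from 0.0453 ± 0.0322 to 0.279 ± 0.0279 FPKM. Acta2 was at 57.4, 56.7 and 57.7 FPKM in the Undifferentiated and 2.18, 2.68 and 2.33 FPKM in the Differentiated libraries. Myl9 (ENSMUSG00000067818, chromosome 2, 156775420 to 156781658, plus strand), from the promoter pair above, was at 7.84, 7.85 and 9.30 FPKM and then at 0.111, 0.0924 and 0.107 FPKM, a fall of at least 54.7-fold, with 3 counts or fewer in each Differentiated library. Cnn2 (ENSMUSG00000004665, chromosome 10, 79988584 to 79996062, plus strand), the other of the pair, fell from 107, 113 and 111 to 6.28, 6.98 and 7.93 FPKM (log2 fold change -3.99, SE 0.07, an edgeR adjusted p that underflowed). Tpm1 and Cald1, which decorate actin filaments, fell by 2.45 and 1.67 on the log2 scale. The cytoskeletal actins Actb and Actg1 were at -0.14 and -0.37, Tpm4 and Myh10 at -0.15 and -0.17, and the serum response factor gene Srf itself overlapped between the groups at -0.06 (SE 0.08).

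Genes of cell division were higher in Differentiated cells. Of 30 mitosis genes, 27 rose and none fell, with log2 fold changes of the list between 0.75 and 2.51 (median 1.91). Aurka (ENSMUSG00000027496, chromosome 2, 172356190 to 172370535, minus strand), Aurora kinase A, was at 3.37, 3.78 and 2.84 FPKM in the Undifferentiated and 19.5, 19.2 and 19.8 FPKM in the Differentiated libraries, a log2 fold change of 2.51 (SE 0.10) with an edgeR adjusted p of 8.7e-149. Mki67, the proliferation marker Ki-67, rose from 1.90 ± 0.341 to 7.93 ± 0.789 FPKM, Top2a from 4.44 ± 0.255 to 18.8 ± 0.403 FPKM and Ccnb1, cyclin B1, from 3.45 ± 0.0674 to 17.1 ± 1.94 FPKM. The list as a whole took 0.0404% of all counts before and 0.138% after, so that these transcripts remained a small part of the library. Of 33 DNA replication genes, 12 rose and none fell past the threshold (median 0.78). Rrm2, of ribonucleotide reductase, rose from 8.91 ± 0.826 to 47.7 ± 1.37 FPKM, while the replicative helicase gene Mcm2 was at 0.01 (SE 0.06) and Pcna at 0.42. Among cyclins, inhibitors and E2F genes, 12 of 27 rose and 4 fell. Ccne1, cyclin E1, rose from 5.43 ± 0.151 to 25.7 ± 0.374 FPKM and Ccnd2 from 37.1 ± 1.67 to 78.6 ± 1.62 FPKM, while Ccnd1 was at -0.99 (SE 0.06), just inside 2-fold, and past it without Differentiated 2 (-1.01), Differentiated 3 (-1.01) or Undifferentiated 2 (-1.04). Of the INK4 inhibitors, Cdkn2a and Cdkn2b fell by 1.45 and 1.93 on the log2 scale and Cdkn2c and Cdkn2d rose by 1.01 and 1.20, and Cdkn1b (p27) fell from 38.0 ± 1.31 to 18.3 ± 0.708 FPKM. The call of Cdkn2c was lost without Differentiated 3 (0.98) or Undifferentiated 1 (0.94). In the Lysfree libraries Mki67 was at 1.49 to 1.51 FPKM and Aurka at 5.25 to 5.84 FPKM.

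Of 29 chemokine and inflammatory genes, 14 fell and 7 rose (median -1.53, or -1.14 with genes near 0 set to their bound). Cxcl12 (ENSMUSG00000061353, chromosome 6, 117168535 to 117181367, plus strand), the stromal chemokine SDF-1, was at 289, 298 and 295 FPKM in the Undifferentiated and 40.2, 40.6 and 41.0 FPKM in the Differentiated libraries, a log2 fold change of -2.88 (SE 0.05) with an edgeR adjusted p that underflowed. Csf1, the macrophage growth factor, fell from 74.2 ± 1.55 to 9.43 ± 0.715 FPKM, Cxcl5 from 23.6 ± 1.17 to 0.999 ± 0.174 FPKM and Ccl2 from 19.9 ± 1.24 to 5.67 ± 2.30 FPKM. Haptoglobin went the other way, with Hp rising from 1.77 ± 0.955 to 35.1 ± 1.36 FPKM, and Ptgs2 (COX-2) rose from 0.913 ± 0.0984 to 4.93 ± 0.526 FPKM. C3, the complement protein, overlapped between the groups, at 149 ± 2.36 and 152 ± 5.83 FPKM.

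Of 29 interferon-stimulated genes, 16 fell and none rose past the threshold (median -1.06). Bst2 (ENSMUSG00000046718, chromosome 8, 71534255 to 71537456, minus strand), tetherin, was at 436, 541 and 431 FPKM in the Undifferentiated and 122, 111 and 125 FPKM in the Differentiated libraries, a log2 fold change of -2.01 (SE 0.06). Ifit3 was at 44.5, 75.8 and 43.7 FPKM and then at 11.1, 10.7 and 14.2 FPKM, a log2 fold change of -2.22 (SE 0.07), and Oasl2 fell from 22.5 ± 4.74 to 6.44 ± 0.994 FPKM. The control libraries spread widely on these genes. Isg15 ran at 104, 205 and 108 FPKM in them and at 82.2, 66.5 and 101 FPKM in the Differentiated libraries, and since the fit gives each gene the dispersion of its level, its p, and those of the other genes of the list, do not carry this extra spread.

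Antioxidant and glutathione genes went both ways, with 7 of 35 higher and 9 lower (median 0.24). Mgst3, a microsomal glutathione transferase, rose from 49.2 ± 4.59 to 483 ± 10.4 FPKM, and the mitochondrial defence genes Sod2, Prdx3 and Txn2 rose by 1.81, 1.63 and 1.03 on the log2 scale. Among forms that are secreted or work in the secretory pathway, Sod3 fell from 51.8 ± 1.75 to 12.5 ± 0.312 FPKM, Gpx8 from 101 ± 6.86 to 26.8 ± 1.74 FPKM, and Gpx7 and Prdx4 by 1.33 and 1.16 on the log2 scale, while Gpx3 was not called at -1.18 but was without Undifferentiated 3 (-1.35). The cytosolic glutathione transferases Gstm1 and Gstm2 fell by 1.84 and 1.67, though near-identical family members can share reads, and Nqo1 fell from 29.8 ± 0.509 to 9.89 ± 0.388 FPKM.

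The transcripts that dexamethasone and IBMX are known to induce were read last. Of 20 glucocorticoid targets, 12 rose and 1 fell (median 1.61). Some of them, such as Klf15, Lpin1 and Angptl4, were counted in the lists above as well. Glul (ENSMUSG00000026473, chromosome 1, 153899944 to 153909723, plus strand), glutamine synthetase, was at 9.14, 9.15 and 9.57 FPKM in the Undifferentiated and 169, 166 and 163 FPKM in the Differentiated libraries, a log2 fold change of 4.13 (SE 0.06) with an edgeR adjusted p that underflowed. Hsd11b1, which regenerates active glucocorticoid, rose from 2.13 ± 0.540 to 22.1 ± 0.974 FPKM, and Dusp1, which overlaps Ergic1 on the opposite strand, from 3.00 ± 0.257 to 31.9 ± 1.86 FPKM. Common reporters of the receptor did not move together. Per1 and Zbtb16 rose by 1.26 and 1.97 on the log2 scale, Fkbp5 overlapped between the groups at 0.07 (SE 0.06), Tsc22d3 (GILZ) was at 0.30 (SE 0.06) and Sgk1 fell from 22.8 ± 0.362 to 10.5 ± 0.358 FPKM. Of 26 cAMP targets and phosphodiesterases, 5 rose and 1 fell (median 0.66). Atf3 was at 0.915, 0.614 and 1.25 FPKM in the Undifferentiated and 24.4, 23.7 and 23.9 FPKM in the Differentiated libraries (log2 fold change 4.71, SE 0.12, an edgeR adjusted p of 6.1e-319), and Fos rose from 1.82 ± 0.336 to 8.43 ± 0.549 FPKM. Nr4a1 was higher within 2-fold at 0.82 (SE 0.09), and Sik1 and Pde4b, both known to answer to cAMP, overlapped between the groups at -0.05 and 0.01.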

How the data were processed

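RNA-seq of 3T3-L1 cells was analysed in 3 Undifferentiated and 3 Differentiated samples, grouped by their labels. The authors removed adaptor and low quality reads, aligned paired-end reads to the mouse build mm10 with HISAT2 (2.0.5 per the submitters' processing notes) and counted them on genes with featureCounts (1.5.0-p3). The deposited tables hold raw counts and FPKM for 54532 genes. The annotation release and the strand setting of the counting are not given in the sources used here. Depth was 15880144 to 21806693 counts per library, and a gene at 3 counts or fewer in all libraries of a group was treated as at the floor. Intervals and floors cover counting error only.

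Genes with a count in any of the 6 libraries were tested with edgeR 4.0.16 in R 4.3.3 (TMM, quasi-likelihood test, no covariate), with p-values adjusted by the Benjamini-Hochberg method over all 24402 genes. SE is the log2 fold change divided by the square root of its F. FPKM were used for levels only. The common biological coefficient of variation was 6.36%. The script was tested on simulated counts of 23400 genes, in which edgeR recovered 197 of 200 changed genes with 1 false call and DESeq2 recovered 196 with 0. Alternatives were DESeq2 1.42.0, other scalings and filters, all 9 libraries, a replicate block, and leaving out each library. Overlapping exons were found with GENCODE M21, and promoter sequences came from RefSeq on GRCm38.p6, which is the same build as mm10.

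Named genes were the 12 largest rises and falls among DEGs of at least 10 CPM with groups that do not overlap, leaving out 56 genes the study names, the 8 genes that gained and lost most CPM, up to 4 DEGs in each direction of each list with members that give its role, and members of the families. Transcription factor classes and runs of neighbouring genes were looked at after their values were seen. The lists and named genes were chosen with earlier results of these data known. Some genes are part of the counts of their lists but are not reported here by name, nor labelled in the figures.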

Additional observations from a re-analysis of the deposited data

How the results depend on the processing

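Against 5329 DEGs, the count was 4855 with DESeq2, 5329 with median-of-ratios factors, 5334 with library sizes alone, 4488 after edgeR's expression filter, 5194 with all 9 libraries, 5343 with robust dispersion, 3637 in a test against a 2-fold change, and 11260 with no fold threshold. Leaving out 1 library gave 5037 to 5161. The labels do not say whether equal replicate numbers pair the samples. Same-numbered libraries correlated at 0.05, -0.13 and -0.02 in their deviations from the group mean, and other pairs between -0.13 and 0.14. Not every sample correlated best with its own number. Deviations from a mean of 3 libraries depend on each other, so that these correlations cannot decide whether the samples were paired. A replicate block gave 4837 DEGs. Single genes were not followed in the test against a 2-fold change or without a fold threshold. Under the other alternatives that gave a value, 348 of 384 genes followed kept direction and call. Beside the losses named in the report, Mogat1 lost its call under most alternatives, Nos2 under the replicate block, Txn2, Hk1, Pgd, Cdkn2c and Stat5a with library sizes alone, Stat5a after the filter, Aqp3 and Aldoc without Differentiated 2, Aqp3 without Undifferentiated 2, Rbl2 without Undifferentiated 1, and Rbl2 and Car13 without Undifferentiated 3. Ccnd1 became a DEG with library sizes alone, and Aqp11 and Cox4i1 without Undifferentiated 2. Signs turned only for genes that were not called. These were Agpat4 (0.0075 with all 9 libraries, 0.0021 with the replicate block, -0.089 to 0.11 without 1 library), Aqp9 (-1.04 to 1.70 without 1 library), C3 (-0.00057 with the filter, -0.031 with library sizes alone, -0.018 to 0.031 without 1 library), Col4a2 (0.0072 with all 9 libraries, -0.024 to 0.033 without 1 library), Cox4i2 (-0.15 with the replicate block, -2.62 to 0.74 without 1 library), Esrrb (-3.44 to 1.92 without 1 library), Hspg2 (-0.072 to 0.14 without 1 library), Irs1 (-0.019 to 0.20 without 1 library), Lpin3 (-0.46 to 0.16 without 1 library), Mcm2 (-0.026 with library sizes alone, -0.015 to 0.039 without 1 library), Nid1 (-0.079 to 0.028 without 1 library), Pde4b (-0.026 with library sizes alone, -0.021 to 0.034 without 1 library), Scd4 (-0.032 with library sizes alone, -0.82 to 4.12 without 1 library) and Slc2a5 (-2.55 to 1.90 without 1 library). List medians kept their sign throughout. After the filter, which tests fewer genes, they were 0.54 (adipogenic factors), 2.93 (triglyceride), 1.54 (fatty acid uptake), 1.5 (adipokines), 3.31 (receptors), 1.97 (glucocorticoid), 0.56 (cAMP), 1.01 (mitochondrial biogenesis), 0.97 (oxidation), 1.00 (thermogenic), -2.36 (matrix) and -1.34 (chemokines). With library sizes alone they were 0.60 (adipogenic factors), 1.47 (fatty acid uptake), 1.66 (fatty acid synthesis), 1.61 (adipokines), 1.58 (glucocorticoid), 0.62 (cAMP), 0.94 (mitochondrial biogenesis), 0.96 (oxidation), 1.88 (mitosis) and 0.56 (cyclins). With all 9 libraries they were 0.64 (adipogenic factors) and 0.98 (mitochondrial biogenesis), and DESeq2 gave 2.35 for receptors. Leaving out 1 library, they ran from 0.61 to 0.70 (adipogenic factors), 2.53 to 2.91 (triglyceride), 1.5 to 1.55 (fatty acid uptake), 1.66 to 1.73 (fatty acid synthesis), 1.48 to 1.78 (adipokines), 2.14 to 2.47 (receptors), 1.58 to 1.64 (glucocorticoid), 0.56 to 0.70 (cAMP), 0.94 to 1.00 (mitochondrial biogenesis), 0.97 to 1.04 (oxidation), 0.96 to 1.09 (branched-chain), 0.63 to 0.76 (thermogenic), -2.28 to -2.20 (matrix), -0.37 to -0.20 (basement membrane), 0.72 to 0.85 (DNA replication), 1.88 to 1.95 (mitosis), 0.55 to 0.61 (cyclins) and -1.68 to -1.17 (chemokines), with 0 to 1 DEGs among mitochondrially encoded genes. Without mitochondrially encoded counts the 8 genes that rose most took 4.06%. Among DEGs of at least 10 CPM, GCATGCGC was in 6.50% of promoters of those higher and 3.26% of those lower, against 6.41% of all genes at that level, and TGANTCA in 5.14% of those higher, against 4.26%. The cause of these shifts was not tested. Calls of genes with a few counts rest on few reads, and no value rests on separate cultures that the labels name.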

Other observations

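Genes were also read along the chromosomes, as runs of neighbours with at least 1 CPM that were all DEGs in the same direction. These runs were picked out after their values had been seen and carry no test. On chromosome 11 (mm10, 100102007 to 100193246) 5 type I keratin genes, which encode intermediate filaments of epithelia, were all higher. Krt19 was at 0.0506, 0.0492 and 0.168 FPKM in the Undifferentiated and 6.48, 6.14 and 6.81 FPKM in the Differentiated libraries (log2 fold change 6.21, SE 0.28, edgeR quasi-likelihood test), and Krt36 at 0.281, 0.327 and 0.299 and then 8.01, 7.07 and 9.71 FPKM. Krt13 and Krt15 rose by 3.70 and 1.98 on the log2 scale, and Krt9 reached 0.835 ± 0.238 FPKM. On chromosome 13 (12702362 to 13191923) the proliferin genes Prl2c2 and Prl2c3, prolactin-like secreted factors that are near-identical copies and can share reads, rose from 8.11 ± 0.793 to 45.7 ± 2.70 FPKM and from 0.624 ± 0.207 to 19.9 ± 4.44 FPKM. 

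Among the runs that were lower, the 4 complement genes C1ra, C1s1, C1rb and C1s2 on chromosome 6 (124512405 to 124636085), proteases that start the classical pathway, fell by 3.66, 3.41, 3.62 and 3.42 on the log2 scale, C1ra from 94.3 ± 7.36 to 7.57 ± 0.0155 FPKM. The 6 guanylate-binding protein genes Gbp8, Gbp9, Gbp4, Gbp10, Gbp6 and Gbp11 on chromosome 5 (105014150 to 105346472), which interferon induces, fell by between 1.43 (Gbp4) and 3.57 (Gbp8). Both are sets of close copies whose reads may be shared. Apod (apolipoprotein D), in a run on chromosome 16 (31233590 to 31875129), fell from 335 ± 10.4 to 23.2 ± 1.35 FPKM, and Islr on chromosome 9, a marker of stromal cells, from 72.5 ± 5.2 to 7.81 ± 0.317 FPKM.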
